A study of Homo sapiens with 3 samples.

Results

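The genes described here are the 141 names in the deposited tables that read LINC followed by digits and hold no hyphen, out of 23284 gene names in all. LINC names were given by the human gene nomenclature committee to long intergenic noncoding RNA genes, that is, to genes for transcripts that are spliced and polyadenylated like mRNAs, lie between protein-coding genes and show no evident open reading frame. The names run from LINC00028 to LINC00575, 6 of them end in a letter (for example LINC00246B), and the only hyphenated name, LINC00266-1, was left out and is listed at 0 in every library. The rule used no measured value.

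The RNA came from HEK293T, a line of human embryonic kidney origin that carries the SV40 large T antigen. In every library the cells expressed dCas9-VP64, a Cas9 that can bind but not cut DNA and that carries a transcriptional activator. Together with it they expressed either mock, sgL1ASP #1 or sgL1ASP #3, both guide RNAs being meant to raise the antisense promoter (ASP) of the L1 retrotransposon. Each condition had 1 library, so differences between conditions cannot be set against a replicate error, and p-values are left out. The level of a gene is its FPKM, the fragments assigned to it normalized to its exon length and to the fragments mapped in the library, which the authors calculated with Cuffdiff from stranded poly(A) libraries. Since FPKM is per length, levels of different genes can be set side by side.

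Long intergenic RNAs work in several ways. Some act as RNA in the nucleus or cytoplasm, some are host transcripts from whose introns or exons a microRNA or a small nucleolar RNA is cut, and some were later found to encode a small protein and were renamed. They are known for narrow expression, with many members confined to brain, testis or early embryo, and for levels below those of mRNAs. A single cell line therefore usually expresses a minority of them.

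RefSeq records show how far the names have moved since the deposited tables were made. Of the 141 names, 140 matched a RefSeq record, 103 of these under the same LINC name and 37 under another symbol. Of the matched names, 13 are now protein-coding genes, 126 are lncRNA genes and 1 is a transcribed pseudogene. Among the 20 genes at FPKM 1 or more in every library, 10 have been renamed, and 6 are now classed as protein-coding.

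Some of the renamed genes are among the highest members, and their reading frames are shown here because the LINC names do not tell that they encode proteins. LINC00493 is now SMIM26 (chr20:18547991-18550207, plus strand, GRCh37, the sequence also known as hg19), which encodes a small mitochondrial membrane protein of 95 residues. LINC00116 is now MTLN (chr2:110969106-111002997, minus strand), which encodes mitoregulin, a mitochondrial protein of 56 residues, and LINC00094 is now BRD3OS (chr9:136890603-136899788, plus strand), with an open reading frame of 84 residues. Their coding sequences, taken from the GENCODE 44 transcripts, are printed in lower case with the start and stop codons in capitals.
SMIM26: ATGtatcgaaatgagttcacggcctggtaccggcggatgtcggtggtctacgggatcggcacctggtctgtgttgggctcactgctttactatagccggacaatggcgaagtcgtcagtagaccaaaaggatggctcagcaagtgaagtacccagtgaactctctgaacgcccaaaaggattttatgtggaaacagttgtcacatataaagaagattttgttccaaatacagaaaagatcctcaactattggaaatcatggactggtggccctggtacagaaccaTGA
MTLN: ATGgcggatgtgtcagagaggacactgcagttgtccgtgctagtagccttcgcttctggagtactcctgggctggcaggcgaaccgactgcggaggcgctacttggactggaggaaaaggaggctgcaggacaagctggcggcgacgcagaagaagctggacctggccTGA
BRD3OS: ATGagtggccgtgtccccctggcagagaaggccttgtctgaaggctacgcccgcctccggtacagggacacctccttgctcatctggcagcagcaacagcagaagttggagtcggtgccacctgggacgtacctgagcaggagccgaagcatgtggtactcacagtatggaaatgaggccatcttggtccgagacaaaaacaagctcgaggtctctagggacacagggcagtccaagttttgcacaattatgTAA
The reading frame fills 58.8% of the printed transcript of SMIM26 and 40.0% of that of MTLN, but 4.49% of that of BRD3OS.

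LINC00086 and LINC00087 each match the RefSeq records of both SMIM10L2A (chrX:134555869-134562000, plus strand) and SMIM10L2B (chrX:134229015-134232742, minus strand), so which name stands for which gene could not be settled. Their coding sequences are each 237 bases long and differ at 10 positions, shown here in capitals, which makes them 95.8% identical.
SMIM10L2A: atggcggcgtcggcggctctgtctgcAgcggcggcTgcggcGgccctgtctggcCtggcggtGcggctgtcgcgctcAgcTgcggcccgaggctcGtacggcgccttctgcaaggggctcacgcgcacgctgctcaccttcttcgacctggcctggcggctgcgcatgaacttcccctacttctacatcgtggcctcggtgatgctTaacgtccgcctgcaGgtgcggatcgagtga
SMIM10L2B: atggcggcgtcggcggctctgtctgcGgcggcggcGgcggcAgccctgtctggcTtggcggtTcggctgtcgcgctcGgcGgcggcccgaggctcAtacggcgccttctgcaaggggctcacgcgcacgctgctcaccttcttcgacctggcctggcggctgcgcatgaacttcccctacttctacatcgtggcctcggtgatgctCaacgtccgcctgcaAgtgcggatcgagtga
Over the whole transcripts, 4.37% of the 75-base windows of SMIM10L2B occur in SMIM10L2A and 2.33% of those of SMIM10L2A occur in SMIM10L2B, where 75 bases is the read length. Reads from these windows could be assigned to either gene, so the values of LINC00086 and LINC00087 are uncertain to that extent.

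Most LINC genes were listed at 0 or at a low level in these cells. Of the 141, 75 (53.2%) were listed at FPKM 0 in every library, against 24.2% of all gene names. A further 46 (32.6%) were above 0 in every library, against 67.0% of all names. Among those 46 were 20 (14.2% of the 141) that reached FPKM 1 in every library, against 53.0% of all names. Only 5 members (3.55%) reached FPKM 10 in every library, against 29.6% of all names. Of the members neither at 0 throughout nor above 0 throughout, 9 were above 0 in exactly 2 libraries and 11 in exactly 1. By mean FPKM, 22 members lay above 0 and under 0.1, 20 between 0.1 and 1, 17 between 1 and 10, and 7 at 10 or above.

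A listed 0 is not taken as absence of the RNA, since the tables hold no read counts, and 2 of 80 ribosomal protein names (RPL10L and RPS17L) are also at 0 in every library. One value above 0, that of LINC00336 in mock, is 6.2e-07, far less than a read can give, and it is counted among the values above 0.

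The number detected hardly depended on the library. FPKM was above 0 for 57 members in mock, 56 with sgL1ASP #1 and 54 with sgL1ASP #3, and at least 1 for 26, 23 and 24. In each of the 3 libraries 6 members were at 10 or above. All LINC genes together held 0.0477% of the summed FPKM in mock, 0.0479% with sgL1ASP #1 and 0.0472% with sgL1ASP #3. LINC00493 alone made up 35.4%, 39.6% and 36.5% of that LINC sum, and the 13 members now classed as protein-coding made up 45.6%, 49.0% and 46.4%.

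The current class of a gene went with its level. Of the 13 names now protein-coding, 6 (46.2%) were at FPKM 1 or more in every library and 2 (15.4%) at 0 in every library. Of the 126 names that are still lncRNA genes, 14 (11.1%) were at 1 or more and 72 (57.1%) at 0. For comparison, among 149 named antisense genes 60 (40.3%) were at 1 or more in every library and 33 (22.1%) at 0, and all 12 genes named SNHG, the hosts of small nucleolar RNAs, were at 10 or more. These shares are descriptions of the same 3 libraries.

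LINC00493 (SMIM26) was the highest member, at 104.6 in mock, 125.6 with sgL1ASP #1 and 116.2 with sgL1ASP #3. Among all gene names it ranked 808th, 652nd and 730th, and the next member, LINC00152, reached 39.8 at most. Mitoregulin, which sits in the inner mitochondrial membrane and affects fatty acid oxidation, was far lower: LINC00116 (MTLN) stood at 5.73, 5.40 and 6.09. BRD3OS, the opposite-strand neighbour of the bromodomain gene BRD3, was measured as LINC00094 at 9.03, 8.41 and 9.08.

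The X-linked pair was lower still. LINC00087 was at 4.76, 5.12 and 4.89, and LINC00086 at 2.58, 2.43 and 3.10. Their FPKM summed to 7.34, 7.55 and 7.99. LINC00085 is now SPACA6, a gene for a sperm membrane protein needed for fusion with the egg, and stood at 5.36, 6.15 and 5.80. None of these genes had 1 library apart from the others by more than 1.5-fold.

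Among members that remain noncoding, LINC00152 and LINC00338 were the highest. LINC00152, now CYTOR (chr2:87754300-87936259, plus strand), a cytoplasmic RNA studied for its high level in tumours, was at 32.2 in mock, 35.9 with sgL1ASP #1 and 39.8 with sgL1ASP #3. CYTOR has a near-identical copy on the same chromosome, MIR4435-2HG, which the tables hold under the name LOC541471. Of the 75-base windows of a CYTOR transcript of 1020 bases, 59.9% occur in MIR4435-2HG transcripts, so the split of reads between both entries is uncertain. LOC541471 ran in the opposite order, at 23.9, 21.5 and 20.3, and the sum of both entries was 56.0, 57.4 and 60.1. The sum thus differed less between libraries, in proportion, than LINC00152 did.

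LINC00338 is now SNHG20 (chr17:75082798-75095984, plus strand), a snoRNA host gene by name, and was at 32.6, 29.7 and 32.9. The tables list a small RNA under SCARNA16, a guide RNA of Cajal bodies that RefSeq links to SNHG20 through the synonym SCARNA16HG, at 15.0, 30.3 and 12.0. Small RNAs of this kind have no poly(A) tail and are shorter than most library fragments, so that FPKM is a weak measure of them.

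LINC00173 (chr12:116971227-116974323, plus strand) came next, at 15.1, 15.2 and 18.7. It was followed by LINC00339 (chr1:22351051-22357716, plus strand), which lies near CDC42, at 13.1, 11.7 and 12.8. LINC00115 (chr1:759608-762919, minus strand) was at 12.96, 9.996 and 9.81, so that mock was the highest and both guide libraries lay close together. LINC00476, now ERCC6L2-AS1 and transcribed from the strand opposite to the DNA repair gene ERCC6L2, was at 9.60, 10.2 and 11.2. LINC00115 and LINC00476 had a mean above 10 without reaching 10 in every library.

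The other noncoding members at FPKM 1 or more in every library lay between 1.70 and 7.13. LINC00294 was at 6.39, 7.13 and 6.62. LINC00467, a transcript with tumour-related reports, was at 5.71, 6.66 and 5.41. LINC00263, now OLMALINC, lies 25866 bases from the start of SCD, the gene for stearoyl-CoA desaturase, and was at 4.76, 6.18 and 6.75. This was the widest spread among the 20, with a highest-to-lowest ratio of 1.42. LINC00174 was at 5.60, 4.57 and 4.70, and LINC00265 at 2.66, 2.67 and 2.99. LINC00235, a single-exon gene that starts 305 bases from the start of CAPN15 on the other strand, was at 3.51, 4.92 and 4.22. The lowest of the 20 were LINC00471, at 1.95, 1.88 and 2.03, and LINC00470, at 1.78, 1.95 and 1.70. The narrowest spread was in LINC00471, with a ratio of 1.07 between the highest and lowest library, followed by LINC00087 and LINC00094, each with 1.08. By an estimate from depth and transcript length, LINC00471 would rest on 27, 26 and 23 reads. Counting alone could give so few reads a wider spread, so the ratio is not a measure of stability.

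Some genes passed a mean of 1 but not FPKM 1 in every library. These were LINC00202 (FAM238C), at 1.70 in mock, 0.932 with sgL1ASP #1 and 1.28 with sgL1ASP #3, LINC00461 (MIR9-2HG, the host of a neuronal microRNA), at 1.63, 1.31 and 0.945, LINC00242, at 1.66, 0.960 and 1.10, and LINC00341 (SYNE3, a nuclear envelope protein), at 1.45, 1.03 and 0.832. In all 4, mock was the highest library. A high value in mock helps a gene to reach a mean of 1, so the filter can bear on this order. Of the 4, only LINC00341 would have a mean under 1 in the guide libraries alone. The tables list SYNE3 a second time under its older name C14orf49, at 1.64, 1.07 and 1.05, which is the same order of mock above both guides. Just below a mean of 1 stood LINC00472, at 1.05, 0.814 and 0.966, LINC00482, at 1.14, 0.977 and 0.705, LINC00535, at 0.725, 0.848 and 1.21, and LINC00176, at 0.828, 0.841 and 1.09.

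A pair of LINC genes host the same kind of microRNA cluster at very different levels, and their microRNAs are shown for that reason. LINC00085 holds MIR99B, MIRLET7E and MIR125A on chromosome 19, and LINC00478, now MIR99AHG, holds MIR99A, MIRLET7C and MIR125B2 on chromosome 21. The mature 5′ arms, from RefSeq for GRCh38.p14, are printed with the seed (bases 2 to 8) in capitals, and they pair off by seed.
miR-99b-5p: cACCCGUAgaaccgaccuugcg
miR-99a-5p: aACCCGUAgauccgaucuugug
let-7e-5p: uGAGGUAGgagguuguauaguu
let-7c-5p: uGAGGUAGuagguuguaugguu
miR-125a-5p: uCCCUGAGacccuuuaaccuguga
miR-125b-5p: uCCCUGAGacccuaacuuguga
The host on chromosome 19 was at 5.36, 6.15 and 5.80, whereas LINC00478 was at 0.0310 in mock, 0.0885 with sgL1ASP #1 and 0.149 with sgL1ASP #3. All 6 microRNA genes were themselves listed at 0 in every library. A poly(A) library does not capture mature microRNAs, so these zeros say nothing of their level. LINC00472, which was near FPKM 1, holds MIR30A and MIR30C2, and these too were listed at 0.

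The members were spread unevenly over the chromosomes. Of all 141, 53.2% were at 0 and 14.2% reached FPKM 1 in every library. The counts per chromosome are small, and the same shares were not taken over all gene names. Whether the members at 0 are spread unevenly was not tested. Chromosome 21 holds 23 LINC genes, more than any other chromosome, of which 0 reached FPKM 1 in every library and 15 were at 0. The highest by mean on that chromosome was LINC00515, at 0 in mock, 1.59 with sgL1ASP #1 and 0.473 with sgL1ASP #3. Chromosome 13 holds 16, of which 0 reached FPKM 1 in every library and 11 were at 0. Chromosome 6 differed from both, with 10 of its 11 members above 0 in some library and yet 0 at FPKM 1 in every library. On chromosome 1, 3 of 9 members reached FPKM 1 in every library, and on chromosome 2, 3 of 7 did, with 4 at 0 on each.

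**Figure D1:**
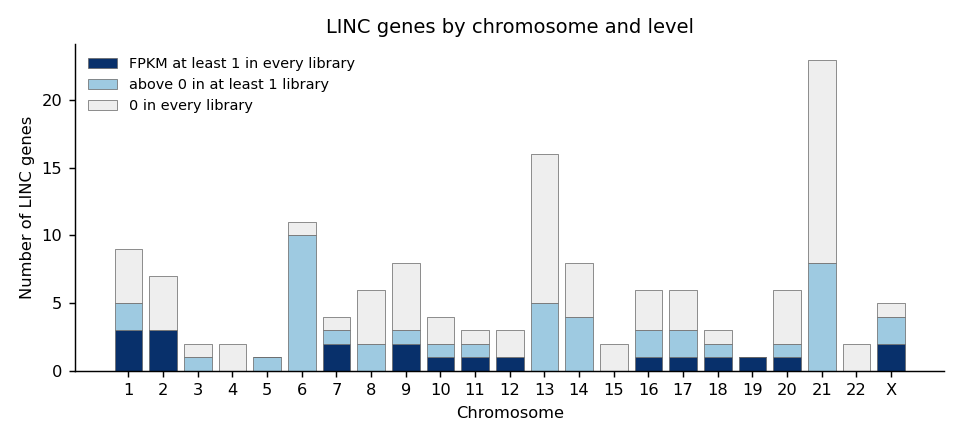
Number of LINC genes (vertical axis) by chromosome, split into those with FPKM of at least 1 in every library (dark), those above 0 in at least 1 library (light blue) and those at 0 in every library (grey), with chromosomes from the RefSeq records or the GRCh37 positions; the Y chromosome is not drawn. Chromosomes 21 and 13 have the tallest bars, 23 and 16 genes, and no dark segment.

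Members at FPKM 1 or more and members listed at 0 also differed in where they lie. Of the 141, 129 could be placed on GRCh37 with GENCODE 44, namely 18 of the 20 at FPKM 1 or more in every library, 41 of the 46 that were above 0 somewhere without reaching that level and 70 of the 75 at 0. The median distance to the nearest start of a protein-coding gene was 34.3 kb for the expressed, 38.4 kb for those in between and 88.6 kb for those at 0. A coding start lay within 5 kb of 5 (27.8%), 5 (12.2%) and 4 (5.71%) of them. An overlap with a protein-coding gene on either strand was found for 7 (38.9%), 9 (22.0%) and 6 (8.57%). So 7 of the 18 expressed genes are not intergenic in this annotation, among them LINC00493 and LINC00094, now protein-coding themselves. Names now protein-coding were kept in all 3 sets. Some nearest coding starts, such as those of LINC00493, LINC00339 and LINC00254 (at 0), belong to gene models without a symbol. The longest transcript had a median of 2947, 2155 and 1898.5 bases, while the median number of exons was 3 in all 3 sets. Annotated transcripts per gene had a median of 12.5, 4 and 3.

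Of 13 well studied LINC genes, 7 stand in the tables under their LINC name. LINC00152 and LINC00467 were the 2 at FPKM 1 or more in every library. LINC00511 and LINC00340 (CASC15), both reported in tumours, were at 0 in every library, LINC00473, a transcript induced by cyclic AMP, was at 0.104, 0.162 and 0, and LINC00461 and LINC00478 are given above. Of the 3 with a mean of at least 1, LINC00461 was past 1.5-fold, lower with sgL1ASP #3 than in mock, as were 2.05% of all genes. Of 8 LINC genes known to encode small proteins, 4 stand under their LINC name, LINC00493, LINC00116, LINC00086 and LINC00087, and all 4 were at FPKM 1 or more in every library with 0 past 1.5-fold in any comparison.

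Other LINC genes stand in the tables under LOC and their NCBI gene number. By that number, NORAD (LINC00657), a cytoplasmic RNA that binds Pumilio proteins, was at 45.9, 46.6 and 46.9. CHASERR (LINC01578), which lies next to the chromatin remodeller CHD2, was at 24.8, 27.9 and 27.8. NBDY (LINC01420), a small protein of the mRNA decapping complex, was at 58.2, 70.8 and 67.4, and SMIM30 (LINC00998) was at 53.8, 51.0 and 52.4. TUNAR (LINC00617), a gene of neural tissue that RefSeq now classes as protein-coding, was at 0.478, 0.290 and 0.383. MIR124-1HG (LINC00599), the host of a neuronal microRNA, was at 0.0351, 0.213 and 0.0844. SPAAR (LINC00961) was at 0, and LINC01139 was at 0, 0 and 0.0866. LINC00458, LINC00948 and LINC01481 are not analysed here.

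The members therefore do not cover every gene that carries a LINC symbol today. Of the 1279 LOC names, 378 have a RefSeq record with a LINC symbol now or as a synonym, and they showed nearly the same split: 56 (14.8%) at FPKM 1 or more in every library and 211 (55.8%) at 0. Their expressed genes had a median FPKM of 4.02 in mock, 4.45 with sgL1ASP #1 and 4.11 with sgL1ASP #3. In the LINC genes these medians were 5.72, 6.42 and 6.35, and in all genes at FPKM 1 or more in every library they were 12.9, 12.7 and 12.8.

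Long noncoding genes with names of their own had a higher median than the LINC genes, with a wide range. Of 20 chosen for comparison, 19 stand in the tables and 14 were at FPKM 1 or more in every library, with medians over the 19 of 42.5, 41.3 and 40.9. SNHG1 was at 508, 518 and 505, GAS5 at 351, 353 and 373, and NEAT1, the RNA around which paraspeckles form, at 276, 267 and 268. MEG3, H19, TERC, MIAT and KCNQ1OT1 stayed under 1 in every library, and FTX (2.17, 2.78 and 1.81) and JPX (6.18, 5.74 and 4.31) lay within the range of the expressed LINC genes. FTX was the 1 of the 14 with a mean of at least 1 that was past 1.5-fold in a comparison, higher with sgL1ASP #1 than with sgL1ASP #3 by 0.59 on the log2 scale, a direction in which 1.96% of all genes were past it. As a check of the cells, VIM was at 807, 904 and 862 and KRT18 at 60.3, 59.3 and 60.6, with 5 of 6 HEK293T markers at FPKM 1 or more in every library. The marker that fell short was PAX2, at 0.522, 0.654 and 0.658. Of 6 markers of other cell types, PTPRC, CD3E, HBB and COL1A2 were at 0, and the 6 summed to between 0.374 and 0.472. Most of that sum was ALB, at 0.467, 0.284 and 0.337, which is not far below PAX2.

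The libraries agreed closely on the level of expressed members. Differences between libraries were taken on the log2(FPKM + 0.1) scale, which understates changes of low genes, and among the 24 members with a mean of at least 1. Across these genes, which are not replicates, Pearson's r of the levels was 0.985 between sgL1ASP #1 and mock, 0.985 between sgL1ASP #3 and mock and 0.992 between both guides, with Spearman's rho of 0.973, 0.979 and 0.982. Without LINC00493, r over the other 23 was 0.978, 0.980 and 0.990. The range of levels sets most of such a coefficient, so the size of the differences tells more. The median absolute difference was 0.160, 0.191 and 0.148, against 0.094, 0.095 and 0.093 for all genes with a mean of at least 1.

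Part of that gap went with level. For members with a mean between 1 and 10, the median absolute difference was 0.193, 0.165 and 0.170, and for all genes in the range it was 0.144, 0.149 and 0.149. For the 7 members at 10 or above it was 0.159, 0.217 and 0.136, against 0.070, 0.071 and 0.070. Levels between 0.1 and 1 were much less repeatable, with r of 0.43, 0.53 and 0.61 over 20 members, and 13, 10 and 14 of the 20 within 1.5-fold. For all gene names in that range r was 0.57, 0.53 and 0.54. Below 0.1 the levels of the 22 members showed no common order between libraries, with r of -0.14, -0.41 and 0.009. All gene names in that range gave -0.07, -0.05 and -0.06. Choosing genes by a mean under 0.1 in these same libraries lowers r by itself, so these coefficients do not measure how repeatable the members are.

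The low values carry the step of a single read. For each single-transcript gene, the depth at which its FPKM would equal 1 read was worked out, and the most common such depth was taken. It was near 10400000 reads for mock, 10300000 for sgL1ASP #1 and 8700000 for sgL1ASP #3. The peak held 35 of 955, 55 of 1001 and 43 of 954 genes, so the estimate of depth rests on few genes. On that estimate 1 read per kilobase is worth FPKM 0.0958, 0.0969 and 0.115. LINC00158 was at 0.0750, 0.0760 and 0.0903, and LINC00204B at 0.190, 0.192 and 0.228, and in both genes all 3 values stand in the ratio that equal numbers of reads would give, within 0.5%. Of 17 members under FPKM 0.3 and above 0 in both mock and sgL1ASP #1, 5 were at the ratio of equal reads, 2 at 2 reads to 1 and 1 at 1 read to 2. Members below 0.1 thus rest on very few reads, and their appearance in 1 library and not another is not a difference that this depth can show. At FPKM 1, a gene of 1 kilobase would have 10.4, 10.3 and 8.68 reads, and counting alone would give the log2 difference of 2 such values a standard error between 0.63 and 0.69.

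Few members differed between libraries by more than 1.5-fold. With sgL1ASP #1, 0 of the 24 were higher than in mock (1.76% of all 12830 genes with a mean of at least 1 were) and 2 were lower (1.79% of all genes), LINC00202, with a log2 difference of -0.80, and LINC00242, with -0.73. With sgL1ASP #3, 0 were higher than in mock (1.75% of all genes) and 2 were lower (2.05%), LINC00341, with -0.74, and LINC00461, with -0.73. Between the guides 0 members were past 1.5-fold in either direction, where 1.96% of all genes were higher and 1.82% lower with sgL1ASP #1. No member was higher in both guide libraries than in mock, and none lower, while 0.678% of all genes were past the threshold upwards and 0.678% downwards. All these counts are of 24 genes, where shares of this size amount to less than 1 gene. The genes named here had means between 1 and 10, where genes differ more between libraries than at higher levels. In that range 15 of 17 members (88.2%) were within 1.5-fold of mock with either guide. Of all genes in the range, 93.8% were so with sgL1ASP #1 and 93.2% with sgL1ASP #3.

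All 4 genes counted as lower are those with the 4 lowest means of the 24, between 1.11 and 1.30. The mock value raised these means, but only LINC00341 would have a mean under 1 in the guide libraries alone. Just under the mean of 1, 2 genes past 1.5-fold with sgL1ASP #3 were not counted. LINC00535 was higher than in mock, with a log2 difference of 0.66, and LINC00482 lower, with -0.62. With the longest GENCODE transcript and the estimated depth, LINC00242 would rest on 42, 24 and 23 reads, for which counting alone gives its difference a standard error of 0.37 with either guide. Its difference with sgL1ASP #3 was -0.55, just short of the threshold of 1.5-fold. For LINC00461 the same estimate gives 141, 112 and 68 reads and a standard error of 0.21 for the difference of sgL1ASP #3 from mock. For LINC00341 it gives 206, 144 and 98 reads and 0.18, if the 13557 bases of the longest SYNE3 transcript are taken. SYNE3 is also listed as C14orf49 with other values, so the transcript behind the LINC00341 entry is uncertain. Its read numbers and standard error may therefore not hold. These figures depend on the transcript length, and the annotation behind the deposited values is not given in the sources used here. On the opposite strand of LINC00242 (chr6:170188886-170199645, minus strand) lies LINC00574 (chr6:170190133-170202969, plus strand), which was at 0.184 in mock, 0.368 with sgL1ASP #1 and 0.476 with sgL1ASP #3 and so ran in the other direction, below the level at which libraries agreed.

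**Figure D2:**
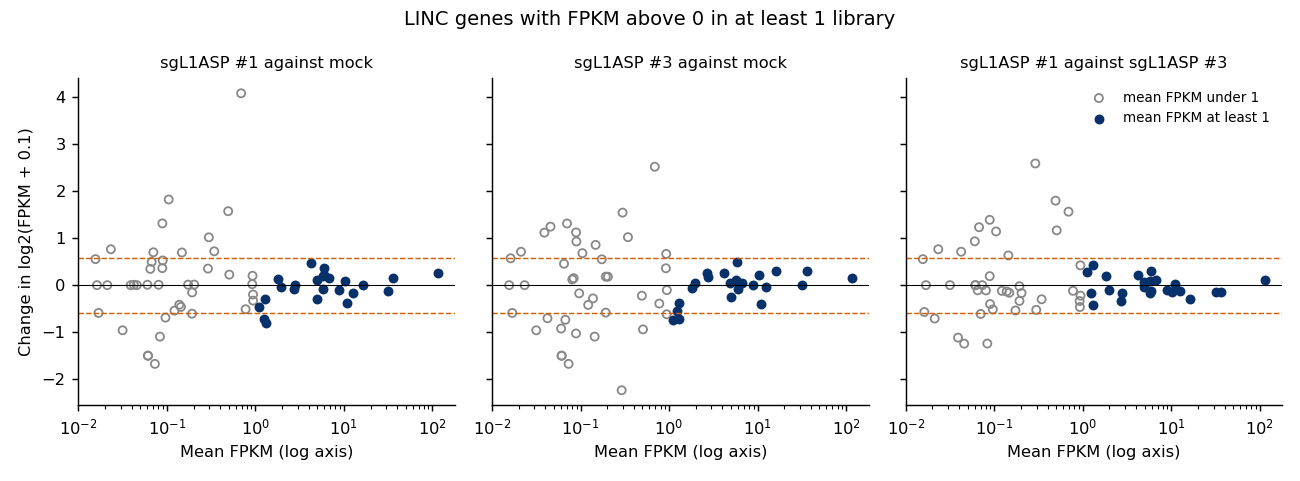
Difference in log2(FPKM + 0.1) between 2 libraries (vertical axis) against mean FPKM over the 3 libraries (log axis) for the 66 LINC genes above 0 in at least 1 library, one panel per pair of libraries; filled points have a mean of at least 1, open points a mean under 1, and dashed lines mark 1.5-fold. Filled points past a dashed line are 2 in each of the panels against mock, both below it, and 0 in the panel between the guides, whereas open points scatter widely.

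No library stood above the others across the expressed members. Mock was the highest library for 7 of the 24, sgL1ASP #1 for 7 and sgL1ASP #3 for 10, and the lowest for 10, 9 and 5. The median signed difference from mock was -0.02 with sgL1ASP #1 and 0.04 with sgL1ASP #3, where all genes had a median of 0.00 in both. The order of mock below sgL1ASP #3 below sgL1ASP #1 was seen in 16.5% of the 12830 genes with a mean of at least 1 and in 5 of the 24 members: LINC00493, LINC00294, LINC00085, LINC00087 and LINC00235.

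The largest single difference was in a gene below the mean of 1. LINC00515 was at 0 in mock and at 1.59 with sgL1ASP #1, and is named here after its values were seen. No fold is given against a value of 0, and no GRCh37 position was matched for this gene. A 0 beside a level of at least 1 in another library was found for 155 gene names, and beside a level of at least 10 for 113, so a 0 in these tables was not read as absence of the RNA. LINC00515 is the 1 LINC gene among the 155.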

How the data were processed

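Poly(A) RNA of HEK293T cells was measured in 3 libraries, 1 per condition, grouped from the labels. Single-end reads of 75 bases from a stranded TruSeq mRNA kit were aligned by the authors against hg19 (TopHat 2.0.13, run with Bowtie2 2.2.3, and SAMtools 0.1.19). They deposited 1 FPKM value per gene, calculated by Cuffdiff 2.2.1. The gene annotation and the scaling between libraries are not given in the sources used here. Read counts were not used, and no test was run. The depth is an estimate, and its precision covers counting error only.

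FPKM were used as deposited, with a pseudocount of 0.1 for log2 differences, a minimum mean of 1 and a threshold of 1.5-fold. In the text 3 values in a row are mock, sgL1ASP #1 and sgL1ASP #3. The genes named are the 20 with the highest mean, those past the threshold, and listed genes (well studied, small protein, other noncoding, cell markers), besides genes named as neighbours, hosts, near-threshold or low examples, chosen after their values were seen. Members and lists were chosen with earlier results of these data known. RefSeq for GRCh38.p14 gave current names but no coordinates. Positions come from the GRCh37 version of GENCODE 44. The depth was estimated from transcripts longer than 1000 bases, with 200 bases taken off their length. The counting rules were tested on simulated data. Alternatives were other pseudocounts, filters, scalings, thresholds and name rules. Calculations used Python 3.11.15 (pandas 2.3.3, NumPy 2.4.6), and matplotlib 3.10.9 drew the figures.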

Additional observations from a re-analysis of the deposited data

How the results depend on the processing

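Under the alternatives, 103 values changed by at most 1.5 times and 27 moved by more (for Pearson's r the limit was 0.1). The number of LINC genes expressed in every library was 38 at FPKM 0.1 and 5 at FPKM 10, in place of 20. It was 28 with each library scaled to an FPKM sum of 1000000 and 14 without names now protein-coding. Counting FPKM 1 in any library gave 29, and counting a mean of at least 1 gave 24. The counts past 1.5-fold against mock rest on a few genes near the filter. The 2 lower with sgL1ASP #1 and the 2 lower with sgL1ASP #3 became 0 and 0 with a pseudocount of 1, with FPKM of at least 1 in every library, or at 2-fold, and without names now protein-coding the second count was 1. With a pseudocount of 0.01, 1 gene (LINC00242) was lower with both guides. A common FPKM sum of 1000000 per library raised every value, because the sums were 619903, 661449 and 673483 before. The filter was thus lower in effect. This scaling shifted the median difference of all genes by -0.09 with sgL1ASP #1 and -0.12 with sgL1ASP #3 and brought LINC00515 past the filter. It then gave 1 gene higher with sgL1ASP #1 than in mock, 1 higher with sgL1ASP #3, 1 higher with sgL1ASP #1 than with sgL1ASP #3 and 1 higher with both guides (LINC00515 each time), 4 lower with sgL1ASP #3, and 1 lower with both (LINC00242). With no filter but FPKM above 0 in some library, 9 were higher and 10 lower with sgL1ASP #1, 12 higher and 15 lower with sgL1ASP #3, 11 higher and 5 lower with sgL1ASP #1 against sgL1ASP #3, and 7 higher and 5 lower with both guides. The median absolute differences were then 0.337, 0.438 and 0.252. Pearson's r moved by less than 0.1 throughout. Its largest fall was under the common sum, to 0.889 for sgL1ASP #1 and 0.943 for sgL1ASP #3 against mock. There LINC00515, at 0 in mock, was among the genes. With each library scaled to the median ratio instead, none of 15 values moved. No paired analysis was possible because there are no replicates, so none could be left out either. Depth limits members under FPKM 0.1, which rest on very few reads.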

Other observations

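Among the 378 LOC names with a LINC symbol in RefSeq, a comparison added after seeing the data, 63 had a mean FPKM of at least 1. Past 1.5-fold, 6 were higher and 4 lower with sgL1ASP #1 than in mock (1.76% and 1.79% of all genes), 2 higher and 2 lower with sgL1ASP #3 than in mock (1.75% and 2.05%), and 4 higher and 2 lower with sgL1ASP #1 than with sgL1ASP #3 (1.96% and 1.82%). Higher with both guides were 2 (3.17% of the 63, against 0.678% of all genes), and 0 were lower with both. The 2 were LOC100133985, by 1.30 and 1.36 on the log2 scale, and LOC150197, by 0.90 and 0.62. Both were under FPKM 1 in mock, at 0.630 and 0.857, and reached a mean of 1 only through the guide libraries. The filter thus bears on this count. With 1 library per condition these counts have no replicate check. The 2 comparisons against mock share the mock library.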
